A study of Mus musculus with 8 samples.

Results

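Respiratory complex I was examined in adipose tissue macrophages (ATMs) of obese and lean mice through 40 genes, of which 15 encode subunits of its matrix arm, 20 subunits of its membrane arm and 4 assembly factors, with Ndufa4 as the last. They were chosen by exact gene symbol, and 39 of the 40 were measured, of 18820 genes in all. Ndufa13 was present only on probe sets shared with a neighbouring gene and has no value of its own. The data came from 8 arrays, with 1 array of obese (HFD-fed) and 1 of lean (LFD-fed) mice in each of 4 experiments. Every array measured a pool of male wildtype C57Bl/6 mice, whose ATMs were taken from epididymal adipose tissue with magnetic beads against the macrophage surface protein that Adgre1 encodes. The HFD (lard) supplied 45% of energy from fat in experiments 1 and 3 (D12451) and 60% in experiments 2 and 4 (D12492), and the LFD supplied 10% (D12450B and D12450J, respectively). By the labels the diets lasted 16, 15, 16 and 10 weeks in experiments 1, 2, 3 and 4. The paper instead names a single duration for all experiments, the longest of these. The ages of the mice were not given in the sources used here.

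Complex I, the NADH:ubiquinone oxidoreductase, is the entry point for electrons from NADH into the respiratory chain. Its matrix arm holds an N module, which oxidises NADH at a flavin, and a Q module, which passes the electrons over iron-sulphur clusters to ubiquinone. Its membrane arm pumps protons, and its core is encoded by mitochondrial DNA, whereas the accessory subunits and the assembly factors are encoded in the nucleus. Ndufa4 was long counted as a subunit of complex I and is now assigned to cytochrome c oxidase (complex IV). It is included wherever the complex I genes are counted here. In macrophages, complex I is known as a site where mitochondria form reactive oxygen species.

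The promoters of these genes were examined because nuclear genes of the respiratory chain are known targets of NRF1, of ETS factors such as GABPA and of YY1. Promoter sequences were from RefSeq (GRCm38.p6), and 36 of the 39 measured genes had 38 promoters among 32851 in the table. In the 250 bases before the start, the NRF1 letters GCGCANGCG, where N is any base, were present on either strand in 8 of 38 promoters (21.1%, 7 genes), against 5.16% of all promoters. Both promoters of Ndufa5, which overlap, are among the 8. Also on either strand, the ETS letters CCGGAAG were present in 4 (10.5%, against 6.91%), the YY1 letters ATGGCGGC in 2 (5.26%, against 1.03%), the ERR letters TCAAGGTCA in 0 (against 0.387%) and the TATA letters TATAAA in 5 (13.2%, against 12.4%). The 2 promoters with the YY1 letters are an overlapping pair of Ndufa7, which also counts as 2 of the 5 with the TATA letters. No motif searched is contained in another. The median number of CG pairs was 16 in the promoters of complex I genes and 6 in all promoters. The following 6 promoters show the last 200 bases before the start. Those of Ndufaf4 (chr4:24897883-24898082, + strand), Ndufs6 (chr13:73328483-73328682, - strand), Ndufs5 (chr4:123718187-123718386, - strand) and Ndufa8 (chr2:36049339-36049538, - strand) hold the NRF1 letters, which are in capitals (both strands and overlapping matches included). Those of Ndufc1 (chr3:51408956-51409155, - strand) and Ndufc2 (chr7:97399803-97400002, + strand), the genes with the highest and lowest diet difference, hold none of the letters searched.
Ndufaf4: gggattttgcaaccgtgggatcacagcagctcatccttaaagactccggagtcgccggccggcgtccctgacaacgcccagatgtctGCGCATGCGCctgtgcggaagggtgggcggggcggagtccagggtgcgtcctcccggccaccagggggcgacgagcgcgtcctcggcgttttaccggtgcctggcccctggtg
Ndufs6: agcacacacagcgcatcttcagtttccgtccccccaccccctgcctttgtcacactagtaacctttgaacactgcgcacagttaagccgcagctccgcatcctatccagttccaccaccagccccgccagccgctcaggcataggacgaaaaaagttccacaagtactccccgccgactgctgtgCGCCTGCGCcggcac
Ndufs5: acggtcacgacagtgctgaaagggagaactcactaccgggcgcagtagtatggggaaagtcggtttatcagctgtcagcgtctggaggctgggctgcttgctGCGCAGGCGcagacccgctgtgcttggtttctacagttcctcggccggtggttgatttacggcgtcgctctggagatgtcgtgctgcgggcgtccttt
Ndufa8: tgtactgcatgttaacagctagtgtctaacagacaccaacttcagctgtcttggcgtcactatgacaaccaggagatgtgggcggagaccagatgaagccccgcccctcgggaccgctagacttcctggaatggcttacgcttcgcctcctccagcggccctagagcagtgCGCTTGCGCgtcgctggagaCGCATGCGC
Ndufc1: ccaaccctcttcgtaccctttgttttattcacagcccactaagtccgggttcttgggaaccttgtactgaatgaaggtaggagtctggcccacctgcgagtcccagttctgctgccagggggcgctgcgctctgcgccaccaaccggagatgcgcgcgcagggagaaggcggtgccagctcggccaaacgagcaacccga
Ndufc2: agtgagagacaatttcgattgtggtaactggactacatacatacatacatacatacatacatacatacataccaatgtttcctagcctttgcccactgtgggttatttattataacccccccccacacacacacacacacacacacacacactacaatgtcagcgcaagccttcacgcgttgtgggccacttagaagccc

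Levels are log2 values from RMA, a method that corrects the background, normalises the arrays together and gives each probe set 1 value, and a difference is the HFD level minus the LFD level. On both arrays of experiment 1 the macrophage markers were lower (mean log2 level of 7 genes 7.54 with LFD and 9.04 with HFD, elsewhere 10.11 to 10.65), whereas the endothelial markers were higher (12 genes, 10.84 and 10.55, elsewhere 6.06 to 9.31). Adgre1 itself had levels of 6.54 and 8.58 there and of 9.95 to 10.96 elsewhere. The mural cell markers were also higher in experiment 1 (6 genes, 9.29 with LFD and 9.32 with HFD, elsewhere 5.19 to 7.54). The mean level of 7 fibroblast markers was 6.26 to 9.55 on the 8 arrays, and that of 9 adipocyte markers was 3.95 to 4.96. In a mixture of cells, fewer cells of a type and less RNA per cell cannot be told apart. Of the 39 complex I genes, 31 had a lower mean level on the arrays of experiment 1 than on the others, with a median difference of -0.11. By the same comparison of means, 56.7% of all genes were lower there. The mixture's part in the diet differences was not tested.

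Complex I expression differed little between ATMs from obese and lean mice. The 39 differences ran from -0.37 (Ndufc2) to 0.31 (Ndufc1), 15 above and 24 below 0. Their median was -0.02, against 0.00 for all genes and 0.03 for genes with a mean level above 5. In limma with Benjamini-Hochberg adjustment, 0 of the 39 genes passed an adjusted p of 0.05 (smallest adjusted p = 0.982, and 0.299 with experiment as a block), as did 0 (0%) of all genes with or without the block. At an unadjusted p under 0.05, 1 of the 39 genes was higher (3.30% of all genes were), namely Ndufa4, now assigned to complex IV. Of the matrix arm, membrane arm and assembly factor genes, 0 were higher. Ndufc2 and Ndufaf4 were the 2 that were lower (1.51% of all genes were). With the block the 2 higher were Ndufa4 and Ndufc1 (7.95% of all genes), and Ndufc2 and Ndufaf4 were again lower (4.16% of all genes). Of the 9219 genes with a mean level above 5, 501 were higher and 156 lower without the block. With the block 1222 of them were higher and 497 lower. With each array centred on its median, which lowered the median difference of all genes from 0.00 to -0.05, 0 complex I genes were higher at that threshold. The same centring changed the split of all genes from 621 higher and 284 lower to 312 higher and 402 lower. Leaving out single arrays gave 0 to 2 higher and 0 to 3 lower complex I genes. The pools came from separate experiments, so the p-values measure the spread between pools, not between mice.

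The spread of these genes was narrow, and the intervals set a bound on the differences. The SD over the 8 arrays had a median of 0.152 for complex I genes and 0.206 for all genes (0.268 for genes with a mean level above 5), and was under 0.2 for 29 of the 39. For 12 of the 39, at least 3 arrays held 1 identical value (23.9% of all genes, and 8.83% of genes with a mean level above 5). Ndufaf1, with 1 value on 6 arrays, had the lowest SD (0.034). The part of such ties in the narrow spread was not tested. The 95% intervals of all 39 differences lay between -1 and 1, that is within a doubling or halving, with or without the block. Those of 32 genes lay between -0.5 and 0.5 without the block. The shares of all genes with intervals inside these bounds were not counted. The widest interval belonged to Ndufa8, an accessory subunit of the membrane arm, at -0.82 to 0.82 (-0.31 to 0.31 with the block). Its levels were 9.29 (LFD) and 9.09 (HFD) in experiment 1 and 7.94 to 8.55 in the others, so that the experiments lay further apart than the diets.

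**Figure D1:**
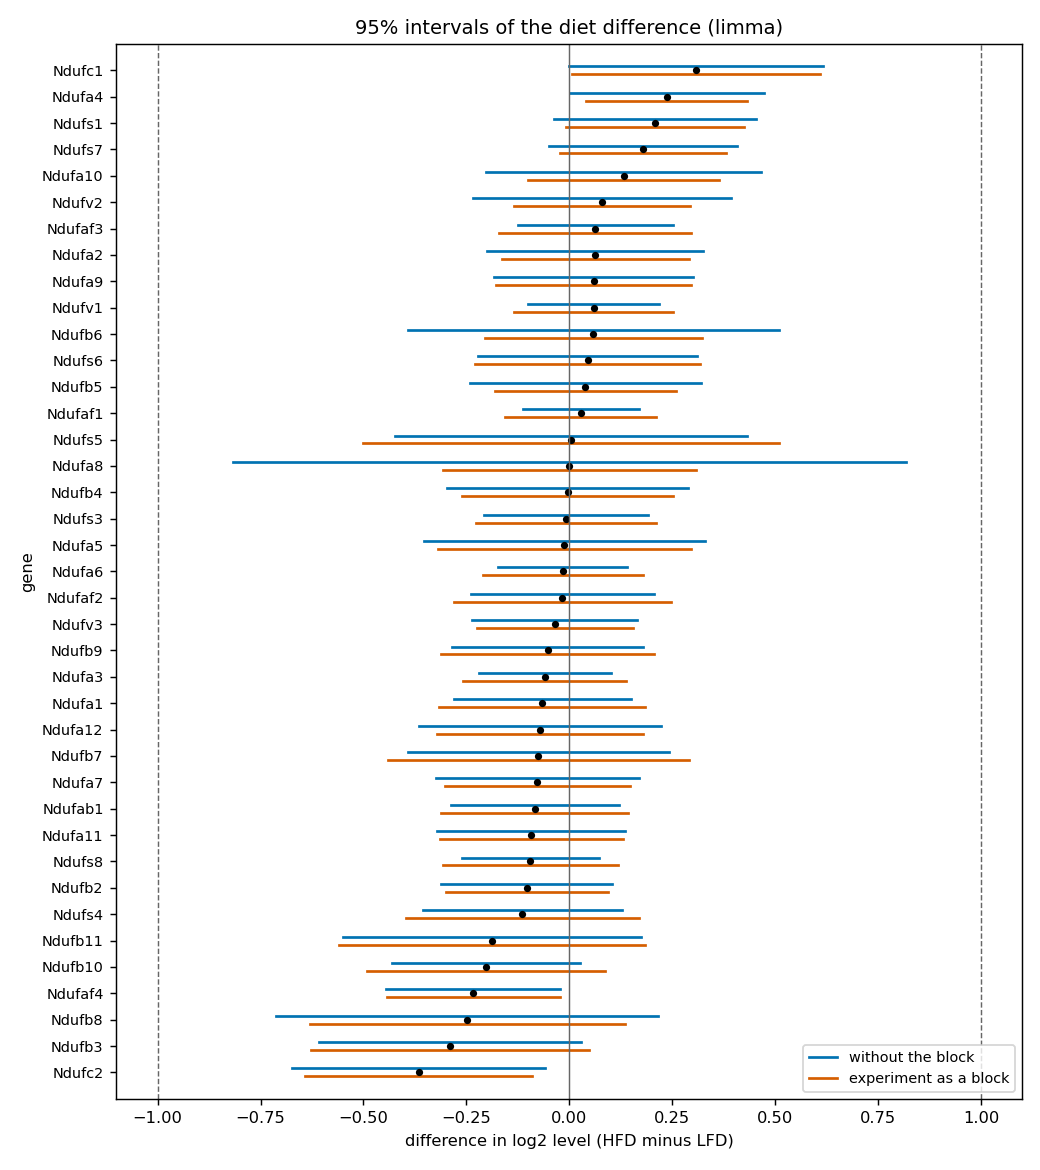
Difference in log2 level (HFD minus LFD) of the 39 measured complex I genes, with 95% intervals from limma (n = 4 pools per diet) without the block in blue and with experiment as a block in orange. All 39 intervals lie between -1 and 1, and those of Ndufc2, Ndufaf4 and Ndufa4 do not reach 0 in either fit.

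In the matrix arm, Ndufs1 and Ndufs7 had higher levels with HFD in all 4 experiments. Ndufs1, the largest subunit and a carrier of iron-sulphur clusters in the N module, had levels of 6.78, 6.78, 7.08 and 6.91 with HFD and of 6.48, 6.76, 6.78 and 6.71 with LFD in experiments 1 to 4. The diet groups overlapped, since HFD arrays of experiments 1 and 2 lay at the upper LFD values, and the difference was 0.21 (SE 0.10, 95% interval -0.04 to 0.45, limma, adjusted p = 0.982). Ndufs7, the Q module subunit that holds the last iron-sulphur cluster before ubiquinone, had levels of 8.58, 8.63, 8.84 and 8.80 with HFD and of 8.54, 8.35, 8.64 and 8.61 with LFD. Its difference was 0.18 (SE 0.10, 95% interval -0.05 to 0.41, limma, adjusted p = 0.982), and 0.118 without the LFD array of experiment 2. Ndufv2, an iron-sulphur subunit next to the flavin site, had levels of 7.37, 7.46, 7.67 and 7.51 with HFD and of 7.11, 7.40, 7.72 and 7.46 with LFD, lower with HFD in experiment 3 alone, and a difference of 0.08 (SE 0.13). Ndufv1, which binds NADH and the flavin, differed by 0.06 (SE 0.07). The other 11 genes of the matrix arm differed by -0.11 (Ndufs4) to 0.06 (Ndufa2). Of the 15 matrix arm genes 7 were above and 8 below 0, with a median of 0.01 in the N module and -0.01 in the Q module.

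In the proximal membrane arm, the 2 genes named as its C subunits lay at opposite ends of the list. Ndufc2, an accessory subunit, had levels of 8.21, 8.35, 8.42 and 7.99 with HFD and of 8.35, 8.82, 8.64 and 8.63 with LFD. The HFD array was lower in all 4 experiments and the diet groups overlapped between 8.35 and 8.42, giving a difference of -0.37 (SE 0.13, 95% interval -0.67 to -0.06, limma, adjusted p = 0.982, and adjusted p = 0.299 with the block). Ndufc1, also an accessory subunit, had levels of 6.97, 7.25, 7.44 and 7.34 with HFD and of 7.02, 6.67, 7.07 and 7.00 with LFD. It was higher with HFD in experiments 2, 3 and 4 and lower in experiment 1, with a difference of 0.31 (SE 0.13, 95% interval -0.00081 to 0.62, limma, adjusted p = 0.982). Its other probe set differed by 0.11, with -0.31 in experiment 1. Ndufa10, an accessory subunit of the same region, had levels of 7.65, 7.94, 8.14 and 8.03 with HFD and of 7.69, 7.59, 8.07 and 7.89 with LFD, and differed by 0.13 (SE 0.14), which was 0.059 without the LFD array of experiment 2, 0.064 without the HFD array and 0.218 without the LFD array of experiment 3, and 0.228 without the HFD array of experiment 1. Ndufs5 differed by 0.02, 0.68, -0.13 and -0.57 in experiments 1 to 4, with opposite signs in the 2 experiments at 60% fat, and its difference over all 4 was 0.00 (SE 0.18). The median over the 8 measured genes was -0.03, with 3 above and 5 below 0.

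The distal membrane arm had the lowest median of the groups of complex I genes, at -0.08, with 9 of 11 genes below 0, and 0 of the 11 passed an unadjusted p of 0.05 with or without the block. Ndufb3 had levels of 5.04, 5.06, 5.24 and 5.17 with HFD and of 5.52, 5.61, 5.52 and 5.03 with LFD. The HFD arrays lay below the LFD arrays of experiments 1 to 3 and above that of experiment 4, and the difference was -0.29 (SE 0.14, 95% interval -0.61 to 0.03, limma, adjusted p = 0.982). Ndufb10 had levels of 6.29, 6.07, 6.33 and 6.27 with HFD and of 6.33, 6.62, 6.33 and 6.50 with LFD, with equal values in experiment 3 and a difference of -0.20 (SE 0.10). Ndufb11, which is encoded on the X chromosome, had levels of 6.72, 6.64, 6.69 and 6.66 with HFD and of 6.76, 7.33, 6.56 and 6.82 with LFD, and a difference of -0.19 (SE 0.16). The LFD array of experiment 2 stood above the other 7, and without it the difference was -0.035. The other probe set of Ndufb11 differed by -0.30, with -0.11, -0.70, 0.11 and -0.49 in experiments 1 to 4. Ndufb8 had levels of 6.36, 6.50, 6.74 and 6.70 with HFD and of 6.35, 7.20, 6.65 and 7.09 with LFD, and a difference of -0.25 (SE 0.20, 95% interval -0.71 to 0.22, limma, adjusted p = 0.991). Without the LFD array of experiment 2 it was -0.122, without that of experiment 4 it was -0.158, and without that of experiment 1 it was -0.405. All 4 genes encode accessory subunits. Ndufab1, the mitochondrial acyl carrier protein, differed by -0.08 (SE 0.09).

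Among the assembly factors, Ndufaf4, which acts early, on the part that becomes the Q module, was lower with HFD in all 4 experiments. Its levels were 5.32, 5.43, 5.24 and 5.57 with HFD and 5.57, 5.72, 5.57 and 5.63 with LFD, so that only the HFD array of experiment 4 reached the LFD values. The difference was -0.23 (SE 0.09, 95% interval -0.45 to -0.02, limma, adjusted p = 0.982). Ndufaf3, the partner of Ndufaf4, differed by 0.06 (SE 0.08). Ndufaf1 and Ndufaf2, which act on the membrane arm and late in assembly, differed by 0.03 (SE 0.06) and -0.02 (SE 0.10), with levels near 5 or below. Of the 7 measured genes with the NRF1 letters in a promoter, Ndufaf4 was the one with an unadjusted p under 0.05, and their differences ran from -0.23 to 0.04 with a median of 0.00.
Ndufa4 was higher with HFD in all 4 experiments. Its levels were 8.58, 8.83, 8.82 and 8.87 with HFD and 8.38, 8.48, 8.67 and 8.63 with LFD, the HFD array of experiment 1 lying within the LFD values. The difference was 0.24 (SE 0.10, 95% interval 0.0018 to 0.47, limma, adjusted p = 0.982).

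**Figure D2:**
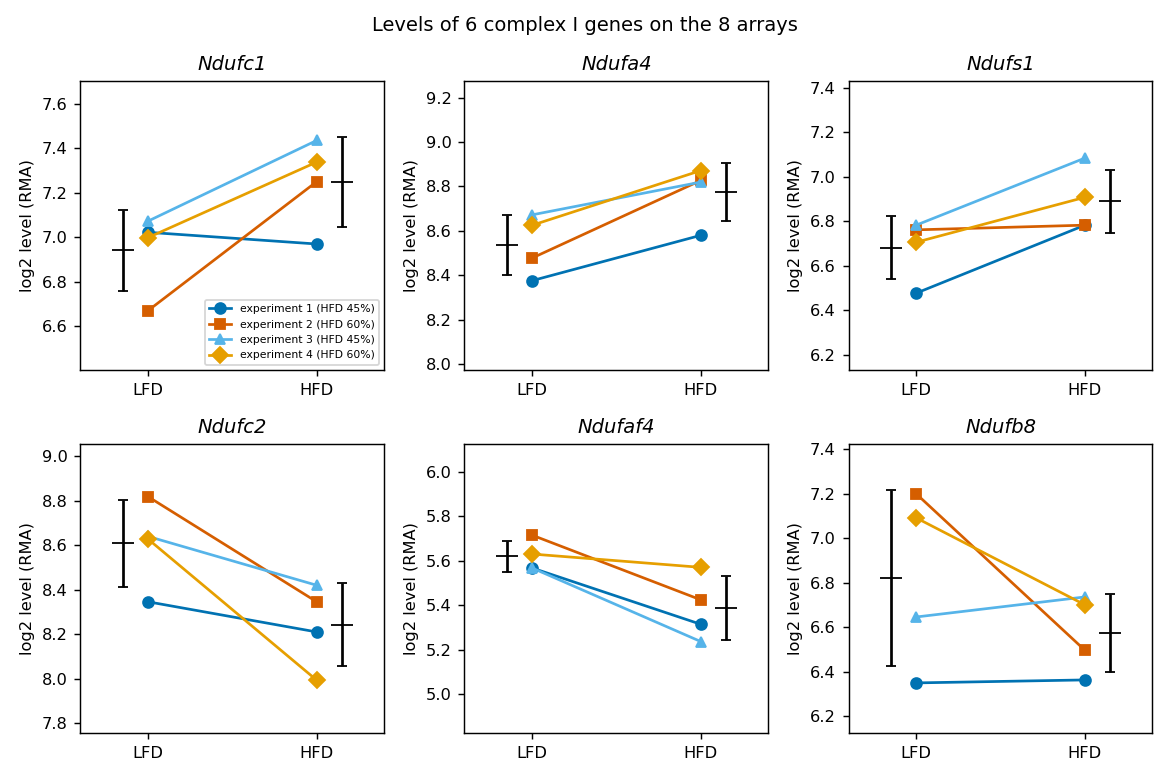
Log2 level on each array (HFD and LFD joined within each experiment) of 6 complex I genes, with the mean and SD of each diet beside the points (n = 4 pools). The lines of Ndufa4 and Ndufs1 go up from LFD to HFD in all 4 experiments, those of Ndufc2 and Ndufaf4 go down in all 4, and those of Ndufb8 go down only at 60% fat.

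Within experiments, 3 of the 39 genes were higher with HFD in all 4 (Ndufs1, Ndufs7 and Ndufa4, with 11.0% of all genes). Another 3 were lower in all 4 (Ndufc2, Ndufaf4 and Ndufa11, with 7.43% of all genes). Of the 9219 genes with a mean level above 5, 1550 were higher and 782 lower in all 4. Ndufa11, a membrane arm subunit, differed by only -0.0016 in experiment 3, where its other probe set differed by 0.245, and with the mean of all probe sets 2 genes were lower in all 4. After each array was centred on its median, 0 of the 39 genes were higher in all 4 experiments (6.23% of all genes) and 10 were lower (12.3% of all genes). For 0 of the 39 genes did all HFD arrays lie above all LFD arrays (1.19% of all genes) or below them (0.680%). The median of the complex I genes was -0.03, -0.03, 0.05 and -0.06 in experiments 1 to 4, against 0.00, 0.02, -0.01 and 0.02 for all genes. Genes with a mean level above 5 had medians of -0.01, 0.09, 0.00 and 0.07.

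**Figure D3:**
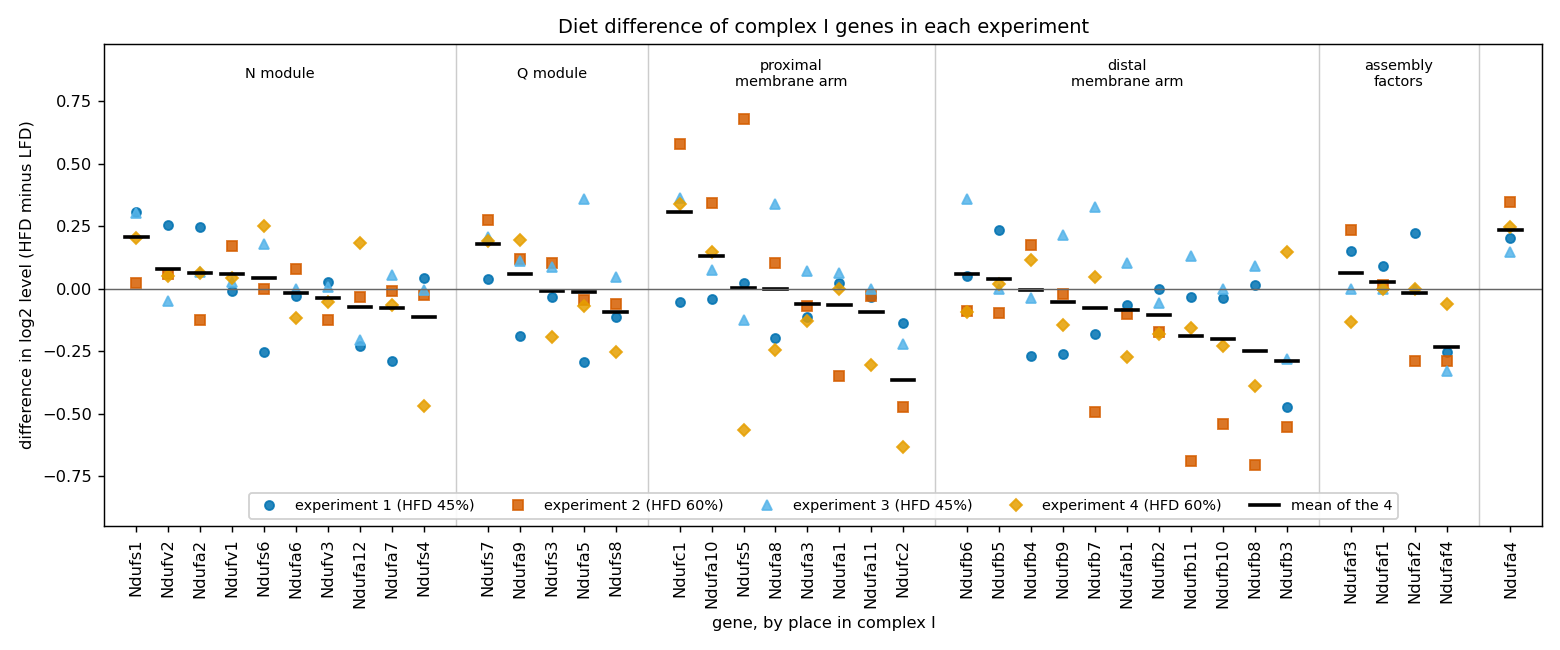
Difference in log2 level (HFD minus LFD) of each measured complex I gene in each of the 4 experiments, grouped by module, with the fat content of the HFD marked. Most points lie between -0.5 and 0.5, and single genes scatter to both sides of 0.

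The membrane arm medians differed in sign between experiments. Its 19 genes had medians of -0.04, -0.10, 0.07 and -0.15 in experiments 1 to 4, with 13, 14, 7 and 12 genes below 0, whereas the medians of the 15 matrix arm genes were -0.03, 0.00, 0.05 and 0.04. The endothelial markers had median differences of -0.25, -0.87, 2.03 and -1.65 in the same experiments, with 12, 11, 0 and 12 of 12 genes below 0. Pecam1, an endothelial junction protein, had levels of 11.10, 8.71, 8.78 and 8.32 with HFD and of 11.35, 9.44, 6.74 and 9.95 with LFD. The endothelial medians had the same sign as those of the membrane arm in each experiment. The medians of all 39 complex I genes (-0.03, -0.03, 0.05 and -0.06) and of complex IV (-0.04, -0.12, 0.15 and -0.05) had these signs too. Those of the macrophage markers had the opposite sign in each experiment (1.53, 0.07, -0.28 and 0.24). The medians of complex II (0.03, 0.18, -0.01 and 0.19) and iron-sulphur cluster assembly (0.02, 0.21, -0.01 and 0.21) had the macrophage marker signs. Complex III (0.02, 0.06, 0.10 and 0.18) and the ATP synthase (0.0035, 0.12, 0.13 and 0.04) had medians above 0 in each experiment. The proximal membrane arm alone had a median of 0.04 in experiment 2, unlike the endothelial markers. The part of the cell mixture in these medians was not tested.

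The fat content of the HFD was compared by the interaction term in limma, that is the difference at 60% minus that at 45%, with experiment as a block. It was called for 0 of the 39 genes at an adjusted p of 0.05 (0% of all genes, smallest adjusted p = 0.951) and for 1 at an unadjusted p under 0.05 (3.95% of all genes). This was Ndufb8, which had a mean difference of 0.05 at 45% and -0.55 at 60% (interaction -0.60, SE 0.19, limma, adjusted p = 0.951), and for which centring the arrays on their medians ended this call. Ndufb8, Ndufb6 and Ndufv3 were higher in both experiments at 45% and lower in both at 60% (3 of 39, with 2.23% of all genes). Ndufb4 was lower in both at 45% and higher in both at 60% (1 of 39, with 6.03% of all genes). In experiment 3, Ndufv3 differed by only 0.0067 and Ndufb4 by -0.037, and the other probe set of Ndufb4 differed by 0.021. In simulated data this test recovered 0 of 100 genes at a log2 change of 1 or of 2, so it could not have called differences of this size after adjustment. By the labels, though not by the paper, the experiments at 60% also had the shorter diets, and if so fat content and duration cannot be told apart.

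Other mitochondrial gene groups were compared with complex I by their counts and medians, and 0 genes of any group passed an adjusted p of 0.05. The highest median was that of 17 mitochondrial membrane and matrix genes, at 0.20, with 3 higher at an unadjusted p under 0.05 (all genes, 3.30%) and 8 higher in all 4 experiments (all genes, 11.0%). Among them Vdac2, a channel of the outer membrane, had levels of 8.92, 9.29, 9.62 and 9.52 with HFD and of 8.60, 8.28, 9.05 and 9.04 with LFD and differed by 0.59 (SE 0.22, limma, adjusted p = 0.982). Vdac1, of the same family, differed by 0.40 (SE 0.18) and passed that threshold with the block, and the import receptor Tomm22 and the prohibitin Phb2 by 0.28 each (SE 0.10 and 0.11). Complex II (8 genes) had a median of 0.10, complex III (13) of 0.08, complex IV (15) of -0.03 and the ATP synthase (16) of 0.07, and 0 of their genes passed an unadjusted p of 0.05. With the block (7.95% of all genes higher and 4.16% lower), Sdhb and Sdhc of complex II (0.28, block SE 0.09, and 0.22, block SE 0.08), Uqcrc1 of complex III (0.22, block SE 0.08) and Atp5a1 and the inhibitor Atpif1 of the ATP synthase (0.20, block SE 0.08, and 0.34, block SE 0.11) were higher at that threshold. Cox6b2 of complex IV (-0.37, block SE 0.07) was lower, with dim levels of 3.57 to 4.51, around the array medians of 4.25 to 4.39. The 12 genes of iron-sulphur cluster assembly had a median of 0.12, with Nfs1, the cysteine desulphurase, at 0.28 (SE 0.12), and 0 without and 2 with the block passed.

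**Figure D4:**
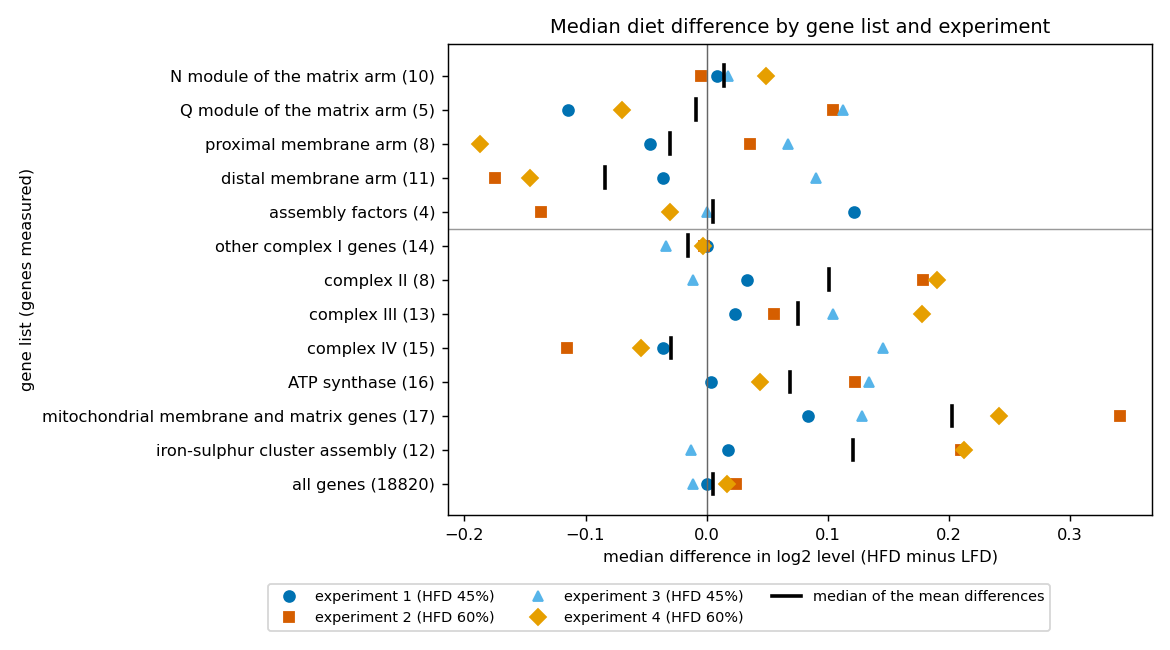
Median difference in log2 level (HFD minus LFD) of each gene group in each experiment, with the number of genes measured and a bar at the median of the mean differences. The bars of the complex I groups lie between -0.08 and 0.01 and that of the mitochondrial membrane and matrix genes lies at 0.20.

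Of 7 genes for other routes of electrons to ubiquinone, Etfa, of the electron transfer flavoprotein, was higher at an unadjusted p under 0.05 without the block (3.30% of all genes) and not with it (0.20, SE 0.08). Dhodh, of pyrimidine synthesis, and Sqor, of sulphide oxidation, were lower in all 4 experiments (-0.26, SE 0.13, and -0.28, SE 0.13, with 7.43% of all genes). Both were lower at that threshold with the block (4.16% of all genes). Among 12 biogenesis factors, with 0 past an unadjusted p of 0.05 without the block, the coactivator Ppargc1a differed by 0.30 (SE 0.15, level 3.08 to 3.89) and was the 1 higher with it (7.95% of all genes). Tfam, which packages mitochondrial DNA, differed by -0.23 (SE 0.13, lower in all 4 experiments). Of 14 further measured complex I genes, 0 passed without the block and 1 was lower with it (4.16% of all genes), the assembly factor Ndufaf7 (-0.22, SE 0.11). The assembly factors Timmdc1 and Tmem126b differed by 0.21 (SE 0.14) and 0.18 (SE 0.11). Mitochondrially encoded subunits and Ndufb1 were not analysed here.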

How the data were processed

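ATM pools from 4 experiments, 1 HFD and 1 LFD array each, were profiled on Affymetrix whole-transcript arrays. The authors deposited log2 values that the submitters' processing notes name as RMA, with no version given, and array medians were 4.25 to 4.39. Precision is limited by having 4 arrays per diet. Among 35556 features, 21218 had 1 gene symbol, 1881 several and 12457 none, and the brightest probe set stood for each of 18820 genes. All 39 measured members were matched by Entrez ID to RefSeq. Of 7 members with 2 probe sets, Ndufs3 and Ndufb4 had differences of opposite sign between them. Ndufs6, Ndufa12, Ndufa11, Ndufs5, Ndufab1 and Ndufb4 have genes named as copies, so their signal is uncertain.

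HFD and LFD were compared with limma 3.58.1 (R 4.3.3, lmFit and eBayes, Benjamini-Hochberg over all genes). The experiment number in the labels pairs the arrays, whose deviations from their diet means correlated within experiments (r over genes of 0.889, 0.357, 0.652 and 0.186), and a fit with experiment as a block was the alternative. In simulated data for all genes, the comparison of diets called 62 of 100 genes shifted by a log2 of 1, 88 of 100 shifted by 2 and 0 unshifted genes (with the block, 66, 93 and 11). Smaller changes were not simulated.

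Members and gene lists were chosen with earlier results of these data known. Values on every array are given for the 6 members with the largest and the 6 with the smallest difference and for members past an unadjusted p under 0.05. Of other lists, up to 2 genes in each direction are named, and of markers Adgre1 and Pecam1. Phb2, Tomm22 and Atp5a1 fall outside this rule and were named for passing an unadjusted p of 0.05 after their values were seen. Alternatives were the block, other scalings, probe set rules, a dim limit (log2 of 5 on 4 arrays), other tests and leaving out arrays or experiments.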

Additional observations from a re-analysis of the deposited data

Results flagged for a closer look

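In 7 of 78 groups of 4 arrays (39 genes, 2 diets), 1 array lay far from the other 3, and chance gives such a gap in about 1 in 20 groups. Among HFD arrays, Ndufa7 was lowest in experiment 1 (5.62, the others 5.98 to 6.04), and among LFD arrays Ndufb3 was lowest in experiment 4 (5.03, the others 5.52 to 5.61). In the other 5 groups the remaining 3 arrays held 1 identical value, so that any gap stands out. These were Ndufa6 with HFD in experiment 1 (8.0455, the others 8.0529), Ndufa1 with HFD in experiment 2 (6.90, the others 6.96), Ndufaf1 with HFD in experiment 2 (4.80, the others 4.78) and with LFD in experiment 1 (4.69, the others 4.78), and Ndufaf2 with HFD in experiment 2 (4.95, the others 5.06).

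The diet difference ran in opposite directions at 45% and 60% fat, in both experiments of each, for 4 genes. Ndufv3, Ndufb6 and Ndufb8 were higher with HFD at 45% and lower at 60% (2.23% of all genes), with interactions of -0.105, -0.295 and -0.599. Ndufb4 ran the other way (6.03% of all genes), with an interaction of 0.30, though its other probe set was higher by 0.021 in experiment 3. In limma all 4 interactions missed the threshold (smallest adjusted p = 0.951), and that of Ndufb8 alone passed an unadjusted p of 0.05.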

How the results depend on the processing

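Under each alternative, 0 complex I genes passed an adjusted p of 0.05. At an unadjusted p under 0.05, the count of higher complex I genes, 1 in the fit as reported, was 2 with the experiment as a fixed block (pairing the arrays), 4 with it as a random block (7.24% of all genes), 0 with arrays centred on their medians, 0 with quantile normalisation, 0 without dim genes, 0 with a trended and robust prior and 0 without experiment 4 (with the block). It ranged from 0 to 2 when single arrays were left out, at 0 without the LFD array of experiment 1, 2 or 4 or the HFD array of experiment 2, 3 or 4, and at 2 without the HFD array of experiment 1 or the LFD array of experiment 3. The count of lower genes, 2 as reported, was 3 with the random block (4.04% of all genes) and 3 with quantile normalisation. It was 1 without dim genes, 1 with the trended and robust prior and 1 without experiment 1 (with the block). It ranged from 0 to 3 when single arrays were left out, at 0 without the HFD array of experiment 1 or the LFD array of experiment 2 and at 1 without the HFD array of experiment 2, 3 or 4 or the LFD array of experiment 3 or 4. The median difference, -0.02, was -0.068 with centred arrays and -0.074 with quantile normalisation, and -0.05 to 0.02 when single arrays were left out. Centring also gave 0 genes higher and 10 lower in all 4 experiments, against 3 and 3, and 0 genes with an interaction at an unadjusted p under 0.05, against 1. Over all genes the same threshold called 462 higher and 455 lower with quantile normalisation, and 425 and 133 without dim genes. Apart from the centring and quantile shifts, which come from the scaling itself, the cause was not tested. For the 12 genes given on every array, 215 of 216 values kept their direction over 18 alternatives, and Ndufv2 turned from 0.08 to -0.024 without the LFD array of experiment 1 (highest value with 1 array left out, 0.176).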

Other observations

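RMA gave identical values, to 6 decimals, on at least 3 arrays for 12 of the 39 complex I genes (23.9% of all genes, and 8.83% of genes with a mean level above 5), and 10 of the 156 differences within experiments, in 8 genes, were exactly 0. Ndufaf1 had 1 value on 6 arrays, Ndufaf2 on 5, and Ndufa6 and Ndufa1 on 4 each.

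Ndufa4l2, a paralogue of Ndufa4 that was chosen after its values were seen, had levels of 8.08, 5.70, 5.86 and 5.25 with HFD and of 8.51, 6.18, 3.93 and 6.21 with LFD in experiments 1 to 4. Its diet difference was 0.01 (SE 1.00), lower with HFD in experiments 1, 2 and 4 and higher in experiment 3. Pecam1 had the same direction as Ndufa4l2 in each of the 4 experiments.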
